A study of Mus musculus with 12 samples.

Results

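The chemokine system was described here across 4 genotypes of mouse bone marrow. Members were the protein-coding genes whose symbol begins with Ccl, Cxcl, Cx3cl, Xcl, Ccr, Cxcr, Cx3cr, Xcr or Ackr followed by a digit, a choice made by name and not by level. The GENCODE annotation of GRCm38 holds 67 such records, 44 of ligands and 23 of receptors, counting copies on unplaced scaffolds. Of these, 56 were matched to the 31060 genes of the count table, 33 ligands and 23 receptors. The other 11 records, among them those of Ccl21a, Ccl21b, Ccl21c and Ccl26, were not analysed here.

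RNA was sequenced from lineage-negative (Lin-negative) bone marrow of C57BL/6 mice, and reads were counted per gene. Lin-negative marrow is what is left when cells with surface markers of mature blood lineages have been removed. The groups were WT (3 libraries), mice heterozygous for a Tet2 mutation (Tet2+/-, 3 libraries), mice heterozygous for the Akita allele of insulin 2 (Ins2Akita/+, here Akita, 2 libraries), and mice labelled with both alleles (Tet2+/-;Ins2Akita/+, 3 libraries). Tet2 is an enzyme that oxidises methylated cytosine in DNA, and the Akita allele makes proinsulin misfold and causes diabetes. The labels give no age or sex, do not say how the Tet2 allele was made or whether animals were pooled, and do not say that libraries of a group came from separate animals. The p-values below therefore measure the spread between these libraries only.

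Chemokines are small secreted proteins that direct cell movement through receptors coupled to inhibitory G proteins. In marrow, Cxcl12 from stromal cells holds stem cells, progenitors and neutrophils through Cxcr4, while Cxcr2 and its ligands draw mature neutrophils out into the blood. Other receptors mark lineages: Ccr2 monocytes, Ccr7 and Ccr9 lymphoid and dendritic cells, Ccr3 eosinophils and basophils.

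The libraries held 14814409 to 22600405 counts, so 3 counts corresponded to 0.142 to 0.190 CPM (counts scaled to a common library total, with TMM factors), a limit that covers counting error only. Tet2 was at 91.2, 128 and 45.1 CPM in WT 1 to 3, at 19.0, 18.5 and 19.3 CPM in Tet2+/- 1 to 3, at 131 CPM in Akita 1 and 107 CPM in Akita 2, and at 66.5, 108 and 34.2 CPM in the libraries labelled with both alleles. The last group overlapped WT and did not overlap Tet2+/-, though each of its libraries lay below the WT library of its number. The Tet2 level thus did not bear out its label as it did for Tet2+/-, and what level the label implies is not known. The libraries of that group are called double-labelled throughout. The libraries numbered 3 in WT, Tet2+/- and the double-labelled group stood apart: mitochondrial genes took 3.43 to 9.76% of their counts against 1.36 to 1.94% in the other 8 libraries, and the 6 erythroid markers summed to 1432 to 3827 CPM against 216 to 1263 CPM. No Akita library numbered 3 was analysed (the table has a column named like one, but it matches no label), so values against Akita carry this split as well as the genotype. Markers of maturing neutrophils, such as S100a8 and Ltf, summed to 2064 to 69310 CPM, and those of B cells, such as Cd79a, to 47.9 to 297 CPM, so cells of both lineages were present in every library. The smallest p that an exact two-sided permutation test of 3 against 3 can give is 0.1, so the tests below are those of a fit across all genes.

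Of the 56 members, 55 had at least 1 count in some library, and Ccl11 (eotaxin) had 0 counts in all 11. Among the 33 ligands, 20 passed edgeR's filter on low counts, 15 had a mean of at least 1 CPM and 10 a mean of at least 10 CPM. Among the 23 receptors, 18 passed the filter, 15 had a mean of at least 1 CPM and 6 a mean of at least 10 CPM. The 13 ligands that did not pass held 0 to 28 counts over all libraries and included Cxcl13, Cxcl5, Ccl7, Ccl8, Ccl12, Ccl19, Ccl20 and Ccl28. The 5 receptors that did not pass held 5 to 83 counts: Ccr1l1, Ackr2, Ackr4, Xcr1 and Cxcr1. Cxcr1, a second receptor for neutrophil-attracting ligands, had 47 of its 83 counts in double-labelled 2 (2.34 CPM) and at most 0.424 CPM in any other library.

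Per kilobase of exon, the scale on which levels of different genes can be set side by side, 3 CC ligands and 1 receptor led. The mean over the 11 libraries was 191 CPM per kilobase for Ccl3, 158 for Ccl4, 138 for Cxcr4 and 111 for Ccl5. On the same scale Cxcl10 followed at 79.1, Xcl1 at 66.7, Ccl9 at 39.6, Ccl6 at 36.5 and Cxcl2 at 28.0. The receptors after Cxcr4 were Ccr7 at 21.5, Ccr1 at 17.1, Cxcr2 at 15.3 and Ccr2 at 6.89 CPM per kilobase. This order is not firm among neighbours: the SD over WT libraries was 259 CPM per kilobase for Ccl3 (mean 233), 114 for Ccl4 (mean 149) and 78.6 for Cxcr4 (mean 131), so these 3 did not differ beyond their spread in WT. In the double-labelled group the order of receptors was Cxcr4 at 142 ± 76.1, Cxcr2 at 39.3 ± 25.8, Ccr1 at 31.0 ± 9.04, Ccr2 at 7.11 ± 2.46 and Ccr7 at 4.03 ± 3.21 CPM per kilobase (SD, n = 3), while in WT Ccr7 at 26.7 ± 25.5 stood second.

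Summed over all 33 ligands, the level was 722, 696 and 926 CPM in WT 1 to 3, 806, 1088 and 599 CPM in Tet2+/- 1 to 3, 627 and 637 CPM in the Akita libraries, 809, 989 and 1582 CPM in double-labelled 1 to 3. Summed over the 23 receptors it was 649, 584 and 197 CPM in WT 1 to 3, 633, 708 and 158 CPM in Tet2+/- 1 to 3, 564 and 541 CPM in the Akita libraries, 509, 711 and 463.5 CPM in double-labelled 1 to 3. The double-labelled ligand sums overlapped WT and Tet2+/- and lay above both Akita sums. The double-labelled receptor sums overlapped all 3 other groups, and in each group that had one the library numbered 3 had the lowest receptor sum.

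In the double-labelled libraries, the neutrophil and myeloid receptors Cxcr2 and Ccr1 and the ligand Cxcl10 lay above every library of the other groups. Of the 18 tested receptors 13 were below WT on the log2 scale, among them Ccr9, Ccr7 and Cxcr3, which overlapped WT, and Ccr8 and Cxcr6, which did not. Differences from WT lay within 1 SE of 0 for Cxcr4, Ccr2 and Ccl25. With Benjamini-Hochberg adjustment over 15630 genes, edgeR's quasi-likelihood test called none of the 38 tested members in any of the 6 comparisons. By that test it called 0.0448% of all genes in double-labelled against WT, 0.262% against Tet2+/- and 0.0384% against Akita. An unadjusted p under 0.05 was reached by 9 of 38 members in each of these 3 comparisons, where 8.79%, 10.9% and 6.6% of all genes did so. Other settings did call members, and their values are given beside the genes below: the same fit with the library number as a block, a fit without the 3 libraries numbered 3, and DESeq2. With the block, 1 member was called in double-labelled against WT (1.63% of all genes called) and 5 against Tet2+/- (4.5% of all genes). With those libraries left out, where 34 members were tested, 4 were called against WT (3.44% of 15092 genes), 7 against Tet2+/- (7.71%) and 5 against Akita (2.89%). DESeq2 called 2, 1 and 1 members in these comparisons, and 2.61%, 3.44% and 1.21% of all genes. In bulk RNA, fewer cells of a type and less RNA per cell cannot be told apart.

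Medians of ligands and receptors had opposite signs in the double-labelled group with all libraries, but the ligand side did not hold without the libraries numbered 3. Of 20 tested ligands, 13 were above and 7 below WT, with a median log2 difference of 0.22. Of 18 tested receptors, 5 were above and 13 below WT, with a median of -0.99. The median over all genes tested was -0.05. Against Tet2+/- the medians were 0.25 for ligands and -1.31 for receptors (all genes -0.08), and against Akita 1.04 and -0.81 (all genes 0.01). Without the libraries numbered 3, where 16 ligands and 18 receptors were tested, the ligand medians were -0.01 against WT (8 above and 8 below), -0.18 against Tet2+/- (7 above and 9 below) and 0.03 against Akita, and the receptor medians were -0.81, -1.40 and -0.57. These comparisons share the double-labelled libraries.

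**Figure D1:**
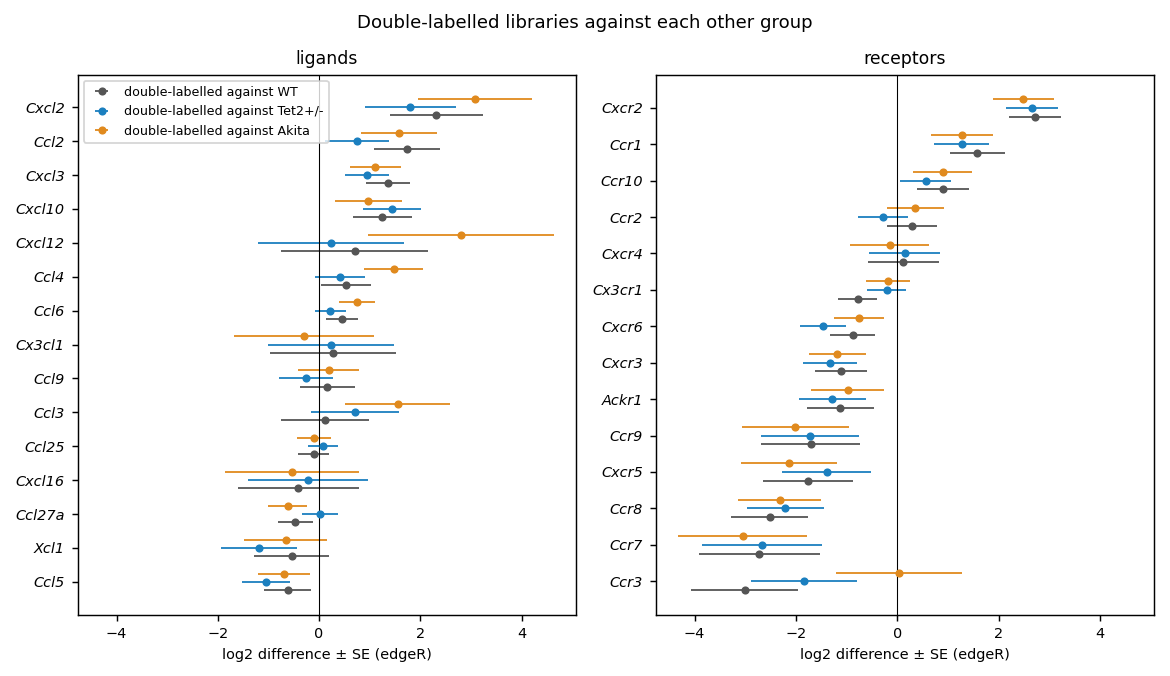
Log2 differences (horizontal axis, points, with bars of 1 SE, from edgeR) of the double-labelled libraries against WT, Tet2+/- and Akita, for 15 ligands and 14 receptors with a mean of at least 1 CPM, ordered by the difference from WT. Cxcr2 at 2.72 against WT is the receptor farthest above 0, Ccr3 at -3.01 the one farthest below, and none of the points passed the adjusted test.

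The CXC ligands with a Glu-Leu-Arg motif (ELR) attract neutrophils through Cxcr2. Cxcl5, Cxcl3, Cxcl15, Cxcl1 and Cxcl2 lie in this order within 146.6 kb of chromosome 5 (GRCm38, 90759360 to 90905938). Genes that are not members were not placed in this order. Cxcl10, an interferon-induced ligand of Cxcr3, lies farther along the chromosome. Cxcl1, Cxcl2, Cxcl3 and Cxcl10 had log2 differences above 1 from WT in the double-labelled libraries, as did Ccl2, Cxcr2 and Ccr1. The stretch upstream of the first 4 is shown, from RefSeq (GRCm38.p6), 5′ to 3′ on the gene's strand. Positions are counted from the transcription start at 0. Capitals mark matches on either strand to the kappa B form (GGG, any 3 bases, TTCC), and in Cxcl10 also to the core of the interferon-stimulated response element (GAAA, any 2 bases, GAAA). The run of 11 capitals that Cxcl1, Cxcl2 and Cxcl3 share holds 2 overlapping kappa B matches, 1 on each strand. The Cxcl1 stretch is chr5:90891145-90891204, plus strand, bases -100 to -41. The Cxcl2 stretch is chr5:90903789-90903848, plus strand, bases -110 to -51. The Cxcl3 stretch is chr5:90786001-90786060, plus strand, bases -100 to -41. The Cxcl10 stretch is chr5:92348980-92349109, minus strand, bases -220 to -91.
Cxcl1: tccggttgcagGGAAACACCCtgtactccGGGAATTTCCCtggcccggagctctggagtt
Cxcl2: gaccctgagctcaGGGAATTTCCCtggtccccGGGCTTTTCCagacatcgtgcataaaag
Cxcl3: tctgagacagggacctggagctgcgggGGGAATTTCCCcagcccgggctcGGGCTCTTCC
Cxcl10: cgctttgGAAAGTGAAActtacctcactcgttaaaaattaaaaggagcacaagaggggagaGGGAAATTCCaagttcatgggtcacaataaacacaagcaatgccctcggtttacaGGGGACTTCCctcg
RefSeq windows from 250 bases before to 50 after the start were at hand for 43 of the 56 members, Ccl2 not among them. The kappa B form was present in 9 of these 43 (20.9%) and in 6.31% of 27025 genes with a window: Ccl1, Ccl20, Ccl9, Ccr3, Ccr6, Cxcl1, Cxcl10, Cxcl2 and Cxcl3. The windows of Cxcr2 and Ccr1 held no match to it. The interferon-stimulated core was present in 3 (6.98%, Ccl19, Cxcl10 and Cxcl14) and in 3.99% of genes. Of the other forms searched on both strands, TATAAA was present in 14 members (32.6%, 15.7% of genes), the RUNX form TGTGGT in 13 (30.2%, 18.9%), the C/EBP form TTGCNNAA in 3 (6.98%, 12.2%) and the PU.1 form GAGGAAGT in 1 (2.33%, 3.69%). A match is a description of letters, not a binding site.

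Cxcl2 was at 17.4, 16.3 and 48.3 CPM in WT 1 to 3, 25.1, 28.6 and 62.6 CPM in Tet2+/- 1 to 3, 15.1 and 16.9 CPM in Akita 1 and 2, and 23.8, 42.3 and 340.1 CPM in double-labelled 1 to 3. Double-labelled 3 stood far above every other library, double-labelled 2 lay within the Tet2+/- range and double-labelled 1 below it. The log2 difference was 2.31 (SE 0.92, adjusted p = 0.474) against WT, 1.80 (SE 0.90, adjusted p = 0.504) against Tet2+/- and 3.08 (SE 1.12, adjusted p = 0.633) against Akita. Leaving out the libraries numbered 3, the difference from WT was 0.97 (SE 0.25, adjusted p = 0.0766).

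Cxcl1 was rare. It had 2, 2 and 1 counts in WT 1 to 3, 4, 12 and 10 counts in Tet2+/- 1 to 3, 1 and 2 counts in Akita, and 5, 9 and 73 counts in double-labelled 1 to 3. The ratio of summed counts at equal depth was 17.6 against WT, with a 95% counting interval of 7.26 to 55.6, and 73 of the 87 double-labelled counts came from 1 library. The edgeR difference from WT was 4.22 (SE 1.17, adjusted p = 0.260), and DESeq2 called it (log2 difference 4.35, adjusted p = 0.0174). Without the libraries numbered 3 its counts did not pass the filter. Cxcl3 was at 1.06, 0.697 and 0.544 CPM in WT 1 to 3, 1.04, 1.30 and 0.773 CPM in Tet2+/- 1 to 3, 0.726 and 1.10 CPM in Akita 1 and 2, and 1.10, 2.29 and 2.60 CPM in double-labelled 1 to 3. Its double-labelled libraries all exceeded WT, with a log2 difference of 1.36 (SE 0.44, adjusted p = 0.336), but overlapped Tet2+/- and Akita.

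Cxcl10 was at 158, 198 and 30.5 CPM in WT 1 to 3, 128, 148 and 63.0 CPM in Tet2+/- 1 to 3, 166 and 147 CPM in Akita 1 and 2, and 302, 399.6 and 218 CPM in double-labelled 1 to 3. All 3 double-labelled libraries lay above all 8 others. The group mean was 307 ± 90.6 CPM (SD, n = 3) against 129 ± 87.3 CPM (SD, n = 3) in WT. Its log2 difference was 1.25 (SE 0.58, adjusted p = 0.594) against WT, 1.44 (SE 0.58, adjusted p = 0.410) against Tet2+/- and 0.97 (SE 0.66, adjusted p = 0.923) against Akita. Within library numbers 1 to 3, from CPM with 0.1 added, it was 0.94, 1.01 and 2.84 against WT and 1.23, 1.43 and 1.79 against Tet2+/-. With the number as a block, Cxcl10 rose against Tet2+/- by 1.52 (SE 0.34, adjusted p = 0.0437), and against WT the value was 1.54 (SE 0.35, adjusted p = 0.0605). In the libraries numbered 1 and 2 alone, it rose by 0.98 (SE 0.18, adjusted p = 0.0319) against WT, 1.34 (SE 0.18, adjusted p = 0.00753) against Tet2+/- and 1.16 (SE 0.18, adjusted p = 0.0235) against Akita. Art3, whose exons overlap those of Cxcl10 on the other strand by 133 bases, had 2 to 20 counts per library. Cxcl9, a second interferon-induced ligand of Cxcr3, was between 0.0948 and 1.01 CPM, with its highest value in each of 3 groups in the library numbered 3.

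Among the CC ligands of inflammation, Ccl2, which draws monocytes through Ccr2, was at 2.52, 2.99 and 0.907 CPM in WT 1 to 3, 6.73, 5.04 and 1.06 CPM in Tet2+/- 1 to 3, 2.42 and 2.35 CPM in Akita 1 and 2, and 5.31, 10.4 and 5.77 CPM in double-labelled 1 to 3. The double-labelled libraries exceeded all WT and Akita libraries and overlapped Tet2+/-. The log2 difference was 1.74 (SE 0.65, adjusted p = 0.431) against WT and 1.58 (SE 0.75, adjusted p = 0.792) against Akita. On numbers 1 and 2 alone, Ccl2 rose against Akita (log2 difference 1.72, SE 0.35, adjusted p = 0.0463) and was at 1.51 (SE 0.35, adjusted p = 0.0545) against WT.

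Ccl3, a ligand of Ccr1, was at 71.7, 57.1 and 407 CPM in WT 1 to 3, 94.6, 118 and 144 CPM in Tet2+/- 1 to 3, 61.3 and 71.5 CPM in Akita 1 and 2, and 50.8, 87.2 and 446 CPM in double-labelled 1 to 3. WT 3 and double-labelled 3 stood alone near the top, and the groups overlapped (log2 difference from WT 0.12, SE 0.87, adjusted p = 0.988). Ccl4, its neighbour and close relative on chromosome 11, was at 55.5, 55.0 and 185 CPM in WT 1 to 3, 85.5, 113 and 122 CPM in Tet2+/- 1 to 3, 51.8 and 50.5 CPM in Akita 1 and 2, and 83.9, 121 and 222 CPM in double-labelled 1 to 3. All double-labelled libraries lay above both Akita libraries, with a difference of 1.47 (SE 0.59, adjusted p = 0.692). Without the libraries numbered 3, Ccl4 rose against Akita (log2 difference 1.0, SE 0.20, adjusted p = 0.0414) and the difference from WT was 0.89 (SE 0.20, adjusted p = 0.0501).

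Ccl5, which T cells and natural killer cells make, was at 139.5, 122.6 and 54.3 CPM in WT 1 to 3, 119.9, 226 and 81.2 CPM in Tet2+/- 1 to 3, 100 and 121 CPM in Akita 1 and 2, and 100.1, 61.8 and 44.2 CPM in double-labelled 1 to 3. The double-labelled libraries overlapped the others, and the difference from Tet2+/- was -1.05 (SE 0.47, adjusted p = 0.455). Ccl9, a myeloid ligand of Ccr1, was at 122, 106 and 95.6 CPM in WT 1 to 3, 171, 229 and 30.9 CPM in Tet2+/- 1 to 3, 108 and 102 CPM in Akita 1 and 2, and 105, 106 and 150.3 CPM in double-labelled 1 to 3. Tet2+/- 1 and 2 were the highest and Tet2+/- 3 the lowest, and without the libraries numbered 3 Ccl9 fell in double-labelled against Tet2+/- (log2 difference -0.93, SE 0.16, adjusted p = 0.0148). With all libraries that difference was -0.26 (SE 0.54, adjusted p = 0.869). Ccl6, another myeloid ligand of Ccr1, ranged from 39.5 to 95.9 CPM, with a difference from WT of 0.45 (SE 0.32, adjusted p = 0.804). Ccl3, Ccl4, Ccl5, Ccl6 and Ccl9 lie within 138.9 kb of chromosome 11 (83525778 to 83664683), and their differences from WT ran from -0.62 to 0.53. Ccl17 and Ccl22, ligands of Ccr4, passed the filter with means under 1 CPM. Ccl22 was at 1.15 and 1.11 CPM in Akita and at 0.301, 0.298 and 0.444 CPM in double-labelled 1 to 3, which did not overlap.

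Among the homeostatic ligands, Cxcl12 was at 3.83, 1.29 and 21.4 CPM in WT 1 to 3, 2.32, 2.85 and 31.2 CPM in Tet2+/- 1 to 3, 1.87 and 2.21 CPM in Akita 1 and 2, and 1.85, 1.49 and 39.7 CPM in double-labelled 1 to 3. It was high in the 3 libraries numbered 3 and at 1.29 to 3.83 CPM in the other 8. Of 8 stromal and endothelial markers, 3 (Lepr, Col1a2 and Cdh5) were higher in every library numbered 3 than in numbers 1 and 2 of its group and 2 (Col1a1 and Vcam1) were lower. Lepr was at 1.03 to 4.06 CPM in the libraries numbered 3 and at 0 to 0.298 CPM in the others. All 8 summed to 61.8 to 192 CPM against 141.5 to 215 CPM, and their part in the Cxcl12 level was not tested. Cxcl14 had the same pattern, at 1.30 to 1.71 CPM in those 3 and at most 0.401 CPM elsewhere. Ccl25, the ligand of Ccr9, was even, at 2.67 to 5.19 CPM, with a difference from WT of -0.11 (SE 0.30, adjusted p = 0.959). Exons of Ccl25 share 204 bases with Elavl1 on the other strand, which had 959 to 2624 counts. Ccl27a, a skin-homing ligand of Ccr10, was at 0.597 to 1.49 CPM.

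Of the remaining ligands, Xcl1, which natural killer and T cells make to attract Xcr1-bearing dendritic cells, was at 41.6, 44.1 and 10.7 CPM in WT 1 to 3, 46.9, 92.6 and 11.8 CPM in Tet2+/- 1 to 3, 37.9 and 32.0 CPM in Akita 1 and 2, and 33.9, 23.2 and 9.0 CPM in double-labelled 1 to 3. The double-labelled libraries overlapped WT and Tet2+/-. With those libraries left out, Xcl1 fell against Tet2+/- (log2 difference -1.29, SE 0.31, adjusted p = 0.0464), and with them the difference was -1.19 (SE 0.75, adjusted p = 0.587). Cx3cl1 and Cxcl16, which are made as membrane-bound proteins and bind Cx3cr1 and Cxcr6, split by library number and not by genotype. Cx3cl1 was at 0.628 to 1.27 CPM in the libraries numbered 3 and at 12.5 to 22.0 CPM in the other 8. Cxcl16 was at 0.676 to 1.21 CPM against 12.5 to 19.2 CPM. Exons of Cxcl16 and Zmynd15 share 552 bases, and Zmynd15 had 3 to 11 counts per library.

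**Figure D2:**
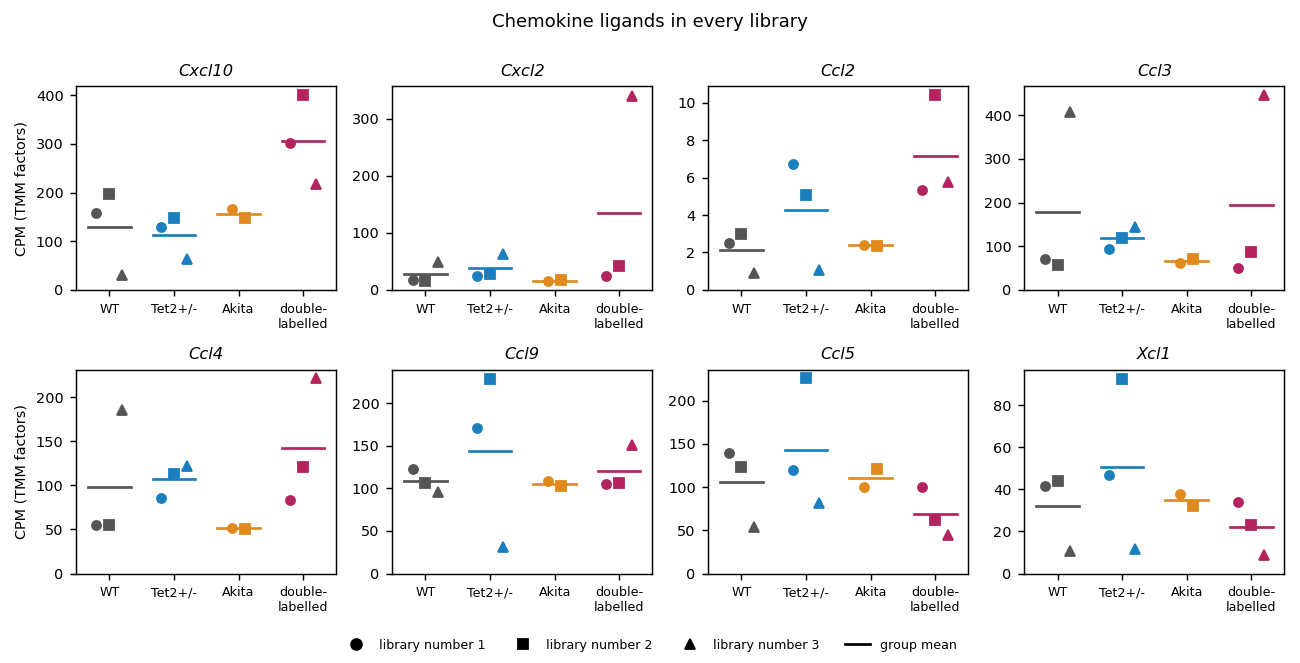
CPM with TMM factors (vertical axis, from 0, each panel with its own scale) of 8 ligands in every library of the 4 groups; point shapes give the library number and the line is the group mean. The 3 double-labelled Cxcl10 values, 218.5 to 399.6 CPM, lie above all other libraries, while Ccl3 and Cxcl2 reach their highest values in libraries numbered 3.

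Among the receptors, Cxcr2, which answers to the ELR ligands on neutrophils, had the largest positive difference from WT (GRCm38 chromosome 1, 74153989 to 74161246, plus strand). It was at 17.0, 22.7 and 15 CPM in WT 1 to 3, 22.3, 18.6 and 15.8 CPM in Tet2+/- 1 to 3, 29.8 and 12.8 CPM in Akita 1 and 2, and 44.4, 114 and 201 CPM in double-labelled 1 to 3. All 3 double-labelled libraries lay above all 8 others, and they spread widely among themselves. The group mean was 119.7 ± 78.5 CPM (SD, n = 3) against 18.2 ± 3.97 CPM (SD, n = 3) in WT. Its log2 difference was 2.72 (SE 0.52, adjusted p = 0.103) against WT, 2.66 (SE 0.52, adjusted p = 0.0888) against Tet2+/- and 2.49 (SE 0.60, adjusted p = 0.341) against Akita. Within library numbers 1 to 3 it was 1.38, 2.32 and 3.74 against WT. With the number as a block, Cxcr2 rose against Tet2+/- (log2 difference 2.59, SE 0.55, adjusted p = 0.0390), and the difference from WT was 2.64 (SE 0.55, adjusted p = 0.0540). DESeq2 called it in all 3 comparisons, with adjusted p = 3.95e-05 against WT, 6.32e-05 against Tet2+/- and 0.00327 against Akita. Leaving out the libraries numbered 3, edgeR gave 2.0 (SE 0.52, adjusted p = 0.0854) against WT. Leaving out double-labelled 1, the lowest of its group, edgeR called Cxcr2 against WT (log2 difference 3.11, SE 0.41, adjusted p = 0.0433). Taking out the lowest library raises the group mean by design, so this call adds no support. No other fit that left out a single library called Cxcr2, and the share of all genes called in this fit is not given here.

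Ccr1, a receptor of Ccl3, Ccl6 and Ccl9 on myeloid cells, was at 35.5, 38.7 and 13.5 CPM in WT 1 to 3, 53.1, 43.7 and 12.4 CPM in Tet2+/- 1 to 3, 41.2 and 31.2 CPM in Akita 1 and 2, and 58.5, 106 and 98.6 CPM in double-labelled 1 to 3. The double-labelled libraries again lay above all others, with a log2 difference of 1.58 (SE 0.54, adjusted p = 0.372) against WT, 1.27 (SE 0.54, adjusted p = 0.430) against Tet2+/- and 1.28 (SE 0.62, adjusted p = 0.80) against Akita. Markers of maturing neutrophils showed the same separation of groups: all 9 lay higher in every double-labelled library than in any library of WT, of Tet2+/- or of Akita. They summed to 45020 to 69310 CPM in the double-labelled libraries, 2064 to 22960 CPM in WT, 2905 to 27990 CPM in Tet2+/- and 15500 to 30030 CPM in Akita. Of all genes tested, 9.55% lay higher in this way against WT, 8.48% against Tet2+/- and 16.6% against Akita. The marker lists were chosen with earlier results of these data known. Within Akita, the sum of these 9 markers and Cxcr2 were both higher in library 1 (30030 and 29.8 CPM) than in library 2 (15500 and 12.8 CPM). In double-labelled 1 to 3 the sums were 45020, 69310 and 60320 CPM, with Cxcr2 at 44.4, 114 and 201 CPM. The lowest sums were those of WT 3 and Tet2+/- 3 (2064 and 2905 CPM), where Ccr1 was also low. Cxcr2 was at 15 and 15.8 CPM there, against 17.0 and 22.7 CPM in WT 1 and 2 and 22.3 and 18.6 CPM in Tet2+/- 1 and 2. None of these 9 was at 0 in any library, and their part in the receptor values was not tested. For the 8 monocyte markers, Ccr2 among them, none lay apart in this way, and they summed to 511 to 1290 CPM in the double-labelled libraries and 315 to 937 CPM in WT.

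Cxcr4, the receptor of Cxcl12, was at 313, 325 and 73.0 CPM in WT 1 to 3, 306, 330.5 and 62.3 CPM in Tet2+/- 1 to 3, 303 and 268 CPM in Akita 1 and 2, and 299, 369.9 and 104 CPM in double-labelled 1 to 3. It was low in the 3 libraries numbered 3 and even across genotypes in the rest, with a difference from WT of 0.12 (SE 0.70, adjusted p = 0.985). Ccr2 was at 39.1, 44.7 and 33.9 CPM in WT 1 to 3, 74.1, 85.0 and 16.7 CPM in Tet2+/- 1 to 3, 44.9 and 29.9 CPM in Akita 1 and 2, and 43.8, 66.4 and 34.0 CPM in double-labelled 1 to 3. The groups overlapped, and its difference from WT was 0.29 (SE 0.50, adjusted p = 0.933). Cx3cr1, the fractalkine receptor of monocytes, ranged from 3.93 to 13.9 CPM, with a difference from WT of -0.78 (SE 0.39, adjusted p = 0.652).

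**Figure D3:**
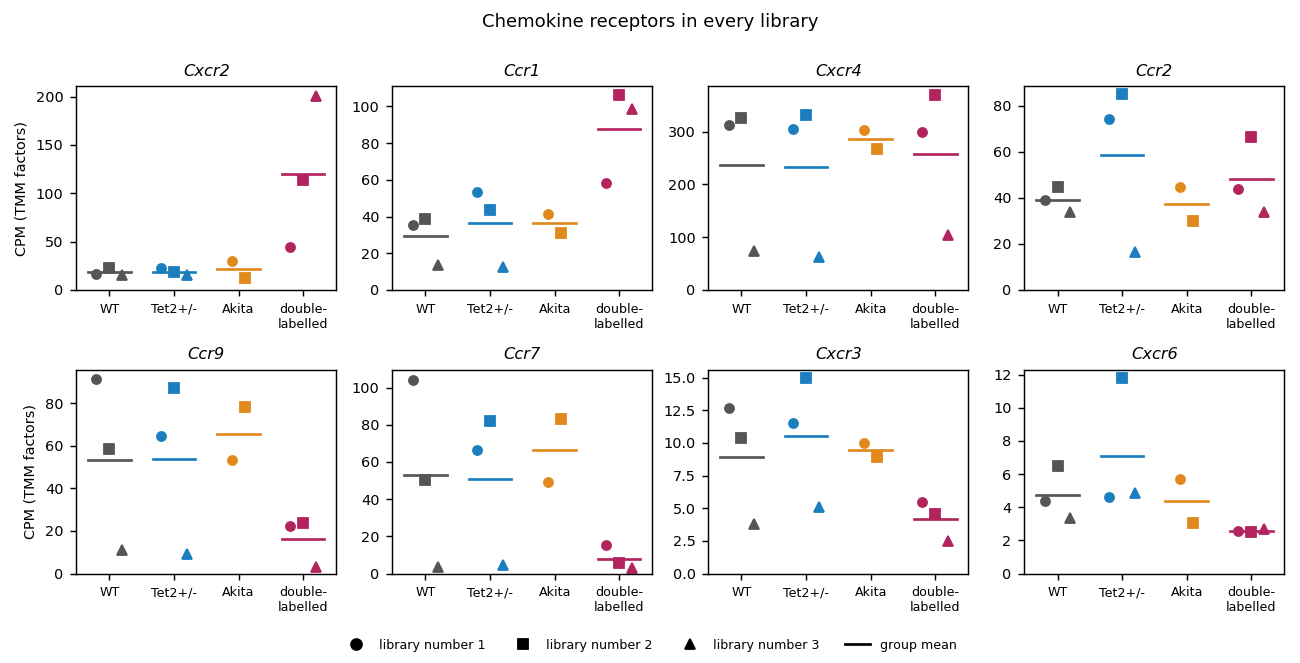
CPM with TMM factors (vertical axis, from 0, each panel with its own scale) of 8 receptors in every library of the 4 groups; point shapes give the library number and the line is the group mean. Double-labelled Cxcr2, 44.4 to 201 CPM, and Ccr1, 58.5 to 106 CPM, lie above all other libraries, and Ccr9, Ccr7, Cxcr3 and Cxcr6 lie lower in the double-labelled library of each number than in the WT and Tet2+/- libraries of that number.

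Among the receptors below WT, those known from lymphoid and dendritic cells come first. This grouping was made with their values known, and it was not tested. Ccr9, the gut-homing receptor that also marks plasmacytoid dendritic cells, was at 91.2, 58.4 and 10.8 CPM in WT 1 to 3, 64.5, 87.2 and 9.18 CPM in Tet2+/- 1 to 3, 53.3 and 78.1 CPM in Akita 1 and 2, and 22.2, 23.7 and 2.98 CPM in double-labelled 1 to 3 (GRCm38 chromosome 9, 123678439 to 123784330, plus strand). The double-labelled libraries lay below both Akita libraries and, because of the low libraries numbered 3, overlapped WT and Tet2+/-. The log2 difference was -1.71 (SE 0.97, adjusted p = 0.722) against WT, -1.72 (SE 0.97, adjusted p = 0.546) against Tet2+/- and -2.01 (SE 1.05, adjusted p = 0.823) against Akita. Within library numbers 1 to 3 it was -2.03, -1.30 and -1.83 against WT and -1.53, -1.88 and -1.59 against Tet2+/-. With the number as a block, Ccr9 fell against WT (log2 difference -1.76, SE 0.23, adjusted p = 0.0180) and Tet2+/- (log2 difference -1.69, SE 0.23, adjusted p = 0.0136). Without the libraries numbered 3 it fell in all 3 comparisons, with log2 differences of -1.70 (SE 0.27, adjusted p = 0.0213) against WT, -1.72 (SE 0.27, adjusted p = 0.0112) against Tet2+/- and -1.52 (SE 0.27, adjusted p = 0.0294) against Akita. Gm17200 and AC165425.1, whose exons overlap Ccr9, had at most 4 counts in any library. Slc6a20a, which shares 22 exon bases with Ccr9 on the other strand, had 29 to 464 counts per library.

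Ccr7, which guides lymphocytes and dendritic cells to lymph nodes, was at 104, 50.5 and 3.63 CPM in WT 1 to 3, 66.5, 82.1 and 4.64 CPM in Tet2+/- 1 to 3, 49.4 and 83.2 CPM in Akita 1 and 2, and 15.1, 5.92 and 2.92 CPM in double-labelled 1 to 3. Double-labelled 1 and 2 lay far below numbers 1 and 2 of the other groups, and the libraries numbered 3 were low in every group that had one. Its log2 difference was -2.72 (SE 1.20, adjusted p = 0.546) against WT. In the libraries numbered 1 and 2 alone, Ccr7 fell, with log2 differences of -2.88 (SE 0.53, adjusted p = 0.0382) against WT, -2.82 (SE 0.53, adjusted p = 0.0246) against Tet2+/- and -2.66 (SE 0.52, adjusted p = 0.0484) against Akita.

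Cxcr3, the receptor of Cxcl9 and Cxcl10 on activated T and natural killer cells, was at 12.7, 10.4 and 3.81 CPM in WT 1 to 3, 11.5, 14.9 and 5.07 CPM in Tet2+/- 1 to 3, 9.98 and 8.88 CPM in Akita 1 and 2, and 5.46, 4.53 and 2.47 CPM in double-labelled 1 to 3. The log2 difference was -1.11 (SE 0.52, adjusted p = 0.610) against WT and -1.33 (SE 0.53, adjusted p = 0.392) against Tet2+/-. With the number as a block, Cxcr3 fell against Tet2+/- (log2 difference -1.29, SE 0.23, adjusted p = 0.0249). On numbers 1 and 2 alone, it fell against WT (log2 difference -1.20, SE 0.22, adjusted p = 0.0319) and Tet2+/- (log2 difference -1.40, SE 0.22, adjusted p = 0.0115). In the same libraries its ligand Cxcl10 had the opposite sign.

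Cxcr6, the Cxcl16 receptor of resident lymphocytes, was at 2.49 to 2.66 CPM in the double-labelled libraries and at 3.03 to 11.8 CPM in the 8 others, which did not overlap. Its log2 difference was -0.88 (SE 0.45, adjusted p = 0.656) against WT and -1.46 (SE 0.45, adjusted p = 0.248) against Tet2+/-. Ccr8, found on regulatory and type 2 T cells, was at 0.301 to 0.348 CPM (5 to 7 counts) in the double-labelled libraries and at 0.576 to 3.78 CPM in the others, also without overlap. Its difference from WT was -2.52 (SE 0.76, adjusted p = 0.297). Cxcr5, the B cell follicle receptor, was at 5.74, 4.23 and 0.605 CPM in WT 1 to 3, 4.26, 3.32 and 0.628 CPM in Tet2+/- 1 to 3, 4.23 and 4.99 CPM in Akita 1 and 2, and 1.96, 0.696 and 0.444 CPM in double-labelled 1 to 3, and its difference from WT was -1.76 (SE 0.89, adjusted p = 0.651). Its exons share 110 bases with Bcl9l on the other strand, which had 211 to 1139 counts per library. Ccr6 and Ccr4, further lymphocyte receptors, had means under 1 CPM and differences from WT of -1.25 and -1.32.

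Markers of lymphoid and dendritic cells were read beside these receptors. All 8 B lineage markers lay lower in every double-labelled library than in any library of WT, of Tet2+/- or of Akita, and they summed to 47.9 to 67.8 CPM against 136 to 179 CPM in WT. Of 8 dendritic cell markers, 6 did so against each of the 3 groups, with sums of 217 to 229.8 CPM against 418 to 636.5 CPM in WT, and 1 (Cd209d) was at 0 in double-labelled 3. Of 8 T and natural killer cell markers, 3 did so against WT, 4 against Tet2+/- and 5 against Akita. Their sums were 178.5 to 281 CPM in the double-labelled libraries and 148 to 538 CPM in WT. Of all genes tested, 8.57% lay lower in this way against WT, 6.68% against Tet2+/- and 19.9% against Akita. These marker lists, too, were chosen with earlier results of these data known. The part of these markers in the receptor values was not tested.

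The other receptors included further ones below WT. Ccr3 was at 0.806, 0.398 and 9.44 CPM in WT 1 to 3, 1.14, 2.08 and 1.5 CPM in Tet2+/- 1 to 3, 0.302 and 0.528 CPM in Akita 1 and 2, and 0.201, 0.597 and 0.507 CPM in double-labelled 1 to 3. WT 3 stood far above the rest, and without the libraries numbered 3 the difference from WT shrank from -3.01 to -0.58. Of 7 markers of basophils, mast cells and eosinophils, 5 (Cpa3, Fcer1a, Ms4a2, Mcpt8 and Prss34) were higher in WT 3 than in WT 1 and 2 and the eosinophil markers Epx and Prg2 were lower. They summed to 3335 CPM in WT 3, against 2876 and 2307 CPM in WT 1 and 2, and to 5994 CPM in double-labelled 3, where Ccr3 was at 0.507 CPM. Their part in the Ccr3 level was not tested. Ccr10 was at 0.384 to 2.28 CPM, with a difference from WT of 0.91 (SE 0.51, adjusted p = 0.711). Ackr1, a scavenging receptor of erythroid and endothelial cells, was at 4.99, 2.64 and 8.17 CPM in WT 1 to 3, 3.13, 3.98 and 10.4 CPM in Tet2+/- 1 to 3, 3.02 and 6.48 CPM in Akita 1 and 2, and 3.36, 0.895 and 2.98 CPM in double-labelled 1 to 3, and its difference was -1.12 (SE 0.66, adjusted p = 0.738) from WT, -1.28 from Tet2+/- and -0.98 from Akita, with overlap in all 3. Exons of Ackr1 and Cadm3 share 361 bases, so its counts may in part belong to Cadm3, which had 8 to 66 counts per library. Ackr3, a scavenger of Cxcl12, averaged 0.791 CPM, with a difference from WT of -0.42 (SE 0.63, adjusted p = 0.923).

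Counting libraries alone, 6 of 38 tested members (15.8%) lay higher in every double-labelled library than in any WT library, where 9.55% of all genes did: Ccl2, Cxcl1, Cxcl10, Cxcl3, Ccr1 and Cxcr2. In the other direction it was 2 (5.26%, Ccr8 and Cxcr6) against 8.57% of all genes. Against Tet2+/- 3 lay higher (7.89%, all genes 8.48%; Cxcl10, Ccr1 and Cxcr2) and 4 lower (10.5%, all genes 6.68%; among them Ccr3, Ccr8 and Cxcr6). Against the 2 Akita libraries they were 9 higher (23.7%, all genes 16.6%) and 10 lower (26.3%, all genes 19.9%). Of the 10 lower, 8 were receptors, among them Ccr6, Ccr7, Ccr8, Ccr9, Cxcr3, Cxcr5 and Cxcr6.

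On chromosome 9, 7 receptors lie together within 435.1 kb (GRCm38, 123678439 to 124113557), in the order Ccr9, Cxcr6, Xcr1, Ccr1, Ccr1l1, Ccr3 and Ccr2. Neighbours did not share a direction. Against WT, Ccr9 was at -1.71, Cxcr6 at -0.88, Ccr1 at 1.58, Ccr3 at -3.01 and Ccr2 at 0.29 on the log2 scale. Xcr1 and Ccr1l1 did not pass the filter. Ccr1, the one with double-labelled libraries above all others, lies between Cxcr6 and Ccr3 among those tested. The Ccr3 value rested on WT 3, at 9.44 CPM against 0.806 and 0.398 CPM in WT 1 and 2.

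**Figure D4:**
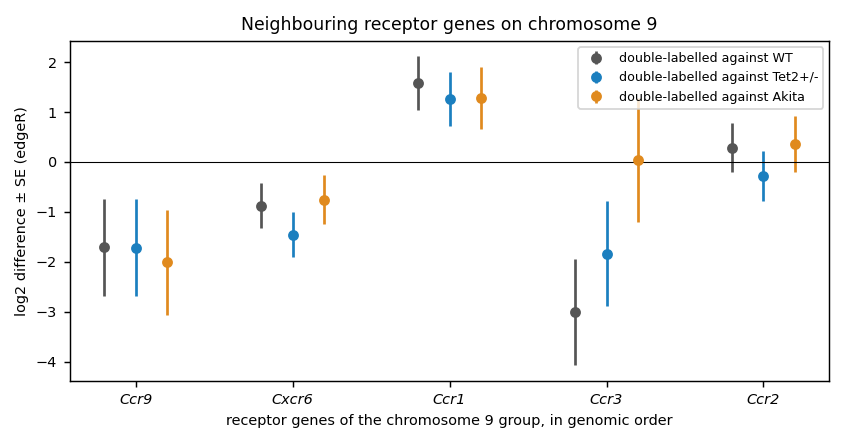
Log2 differences (vertical axis, points, with bars of 1 SE, from edgeR) of the double-labelled libraries against WT, Tet2+/- and Akita for 5 chromosome 9 receptors with a mean of at least 1 CPM, in genomic order and not to scale along the chromosome. Ccr1 is above 0 in all 3 comparisons (1.58, 1.27 and 1.28), and Ccr9 and Cxcr6 are below 0 in all 3.

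No member was called for either allele alone. In Tet2+/- against WT, edgeR called 0 of 38 members and 0.0256% of all genes, and 0 members reached an unadjusted p under 0.05 (2.12% of all genes). DESeq2 (0.288% of all genes), the block (0.0512%) and the fit without the libraries numbered 3 (0.146%) also called 0 members. The median log2 difference was 0.14 for ligands and 0.11 for receptors (all genes 0.03). Cxcl1, with 4, 12 and 10 counts against 2, 2 and 1, lay higher in every Tet2+/- library, and Ccl27a lay lower (1 member each way, 2.63%, where 2.07% of all genes lay higher and 2.18% lower). In Akita against WT, 0 members and 0% of all genes were called, DESeq2 called 0, and 1 member, Ccr3, reached an unadjusted p under 0.05 (0.429% of all genes). Its difference of -3.05 (SE 1.25, adjusted p = 1.0) again rested on WT 3. Ccl22 lay higher in both Akita libraries than in WT (1 member, 2.63%, all genes 4.78%), and Ccl17 and Ccl4 lay lower (2 members, 5.26%, all genes 6.86%).

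The interaction asks whether the step from Tet2+/- to the double-labelled group differs from the step from WT to Akita. It called 0 members and 0% of all genes, DESeq2 called 0 members and 0.365% of all genes, and 1 member, Cxcr2, reached an unadjusted p under 0.05 (3.44% of all genes). For Cxcr2 the interaction was 2.44 (SE 0.76, adjusted p = 1.0). The median was 0.64 for ligands and -1.24 for receptors (all genes -0.02). An unadjusted p under 0.05 was reached by 7 of 38 members with the number as a block (9.97% of all genes) and by 9 of 34 without the libraries numbered 3 (12.8%), where the ligand median was 0.16 and the receptor median -1.18. Neither fit called a member by adjusted p.

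The libraries numbered 3 differed from numbers 1 and 2 in both ligands and receptors. Among the 30 members with a mean of at least 1 CPM, 7 were more than 1 lower on the log2 scale than the mean of numbers 1 and 2 in each of the 3 groups with such a library: Xcl1, Cx3cl1, Cxcl16, Cxcr4, Ccr9, Ccr7 and Cxcr5. Of all 13129 genes at that level, 7.08% were. Cxcl2 and Cxcl12 were more than 1 higher in all 3 groups, as were 3.52% of all genes. For Cxcr4 the difference was -2.13 in WT, -2.35 in Tet2+/- and -1.68 in the double-labelled group. The 5 primary granule markers were lower in all 3 of these libraries than in numbers 1 and 2 of their group, with sums of 604 to 7281 CPM against 7830 to 13580 CPM in the other 8 libraries. Their part, and that of the erythroid markers, in the chemokine values was not tested.

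**Figure D5:**
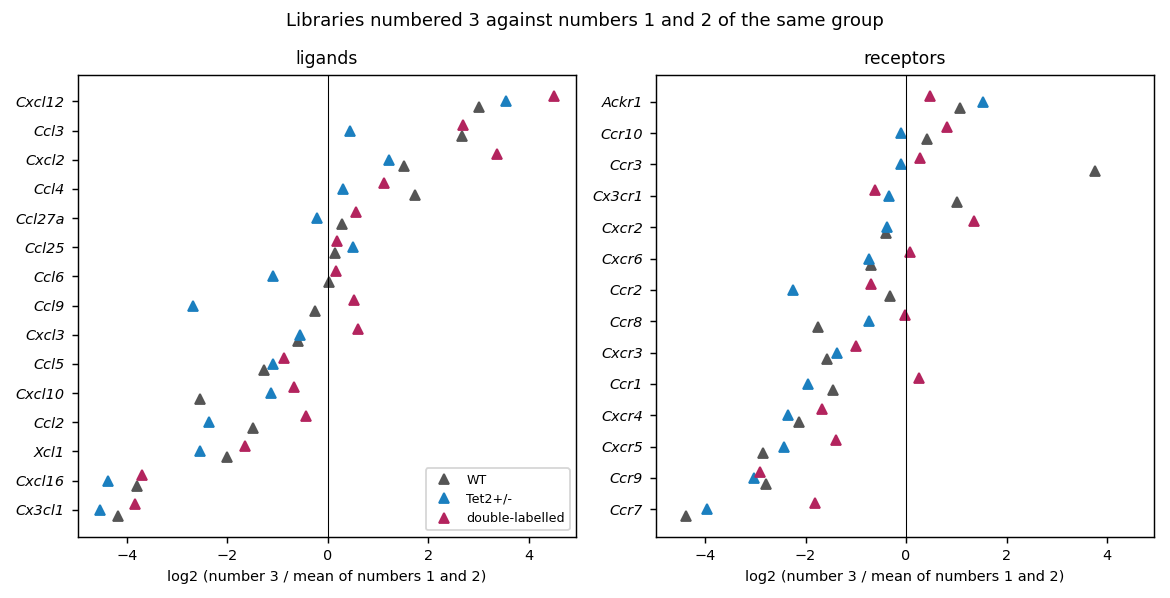
Log2 ratio (horizontal axis) of each library numbered 3 to the mean of numbers 1 and 2 of its group, for WT, Tet2+/- and the double-labelled group, after adding 0.1 CPM to both, for 15 ligands and 14 receptors with a mean of at least 1 CPM. Cxcl12 lies above 2 and Cxcl16 and Cx3cl1 below -3 in all 3 groups.

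A list of 35 related genes was also read, all of them tested. It held G protein subunits, receptor kinases, arrestins, Rgs proteins and effectors such as Plcb2, receptors of other attractants, the atypical receptor Ccrl2, the chemokines Pf4 and Ppbp, the chemokine-like Cklf, and the peptidase Dpp4. edgeR called 0 of 35 in every comparison, with the percentages of all genes given above. In double-labelled against WT, 27 were above 0 and 8 below, with a median log2 difference of 0.31. The smallest p belonged to Fpr2, a formyl peptide receptor of neutrophils, at 20.6, 21.8 and 6.90 CPM in WT 1 to 3 and 47.8, 104 and 244 CPM in double-labelled 1 to 3 (log2 difference 3.0, SE 0.71, adjusted p = 0.186). It was not called with the number as a block (3.12, SE 0.80, adjusted p = 0.0870) or without the libraries numbered 3, where it was at 1.84 (SE 0.42, adjusted p = 0.0588). DESeq2 called Fpr2 in all 3 comparisons of the double-labelled group and the receptor kinase Grk6 against WT. With the number as a block, the complement receptor C5ar1 rose against WT (2.31, SE 0.45, adjusted p = 0.0474) and C5ar1, Plcb2 and Rgs14 rose against Tet2+/-. Without the libraries numbered 3, C5ar1 and the leukotriene receptor Ltb4r1 rose and Dpp4, which trims several chemokines, fell in all 3 comparisons. Against WT these were 1.67 (SE 0.34, adjusted p = 0.0465), 1.03 (SE 0.19, adjusted p = 0.0319) and -0.82 (SE 0.14, adjusted p = 0.0243). Against Tet2+/- alone, Plcb3 also rose and Rgs1 and Rgs16, which end G protein signals, also fell.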

How the data were processed

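The authors deposited 1 table of whole-number read counts per gene without normalisation, as its header and values show. The submitters' processing notes name bcl2fastq, Trimmomatic 0.32, TopHat2 2.1.1 and build GRCm38. How reads were counted (program, annotation release, strand) is not given in the sources used here, so reads of overlapping and antisense genes cannot be assigned with certainty.

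Of 12 labelled samples, 11 were matched to a column by name. The sample labelled with both alleles and numbered 4 was not analysed here, and 1 column, named like an Akita library numbered 3 but matching no label, was not used. Whether that column is that sample is not given in the sources used here. Gene names came from GENCODE M21: 30875 of 31060 identifiers matched without their version and 25042 with it. Replicates of 1 group differed by more than counting noise, the closest being WT 1 and 2 with a chi-square of 15.6 per gene.

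The test was edgeR's quasi-likelihood test (edgeR 4.0.16, R 4.3.3) after filterByExpr and TMM scaling, with all 4 groups in 1 fit and robust=TRUE. A gene was called at a Benjamini-Hochberg adjusted p under 0.05 over 15630 genes. SE is the size of the log2 difference divided by the square root of F. The code was tested on simulated data. Members are described where their mean reached 1 CPM, and values in every library are given for members called in any of 3 edgeR fits and for those of highest mean. The values of 1 receptor, which stays in the counts over members, are not reported here. Members, signalling genes and marker lists were chosen with earlier results of these data known. The alternatives changed the scaling (RLE, upper quartile), the tool (DESeq2 1.42.0, limma 3.58.1 with voom), the low-count filter, robust=FALSE and the groups in the fit, added a replicate block, or left out the libraries numbered 3 or 1 library each.

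The replicate numbers come from the labels. Deviations from the group mean correlated between same-numbered libraries at 0.485 to 0.791 for WT and Tet2+/-. The values were 0.34 to 0.589 for WT and the double-labelled group, and 0.318 to 0.533 for Tet2+/- and the double-labelled group. Between unlike numbers 1 and 2 they were much the same, at 0.51 and 0.691, 0.335 and 0.372, and 0.462 and 0.211 in turn. Between number 3 and numbers 1 or 2 all were negative. Number 3 was thus set apart, but these values do not show a pairing of 1 with 1 and 2 with 2. They could hardly do so: deviations within a group of 3 sum to 0. A number 3 far from the rest therefore moves the deviations of 1 and 2 the same way. The block and the differences within library numbers assume that pairing. For Akita with WT the same-numbered values were 0.0661 and -0.351.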

Additional observations from a re-analysis of the deposited data

How the results depend on the processing

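edgeR called 0 members in each direction of all 6 comparisons, and 21 alternatives were tried. The counts of calls moved only for the double-labelled libraries. DESeq2 called 2 members higher against WT, 1 against Tet2+/- and 1 against Akita. The fit that pairs libraries by number (replicate block) called 1 lower against WT, and 2 higher and 3 lower against Tet2+/-. The block changed no other call. Without the libraries numbered 3, 1 was higher and 3 lower against WT, 1 higher and 6 lower against Tet2+/-, and 3 higher and 2 lower against Akita. Leaving out 1 library at a time gave 0 to 1 members higher against WT. The cause of these changes was not tested, though the fit without the libraries numbered 3 also holds fewer samples and fewer genes. Of 3690 alternative values of the 180 log2 differences of 30 members, 26 passed the threshold where the first fit did not, and 3 changed sign with both values over 1 SE from 0: Ccl3 in the interaction, to -0.67 without the libraries numbered 3, and Ccr3 in Tet2+/- against WT, to 1.40 without them and to 1.37 without WT 3. Leaving out 1 library at a time moved that Ccr3 value between -1.70 and 1.37. The fit of only both groups gives no value for the interaction. Depth limits the members under 1 CPM, where 3 counts are 0.142 to 0.190 CPM.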
